A study of Rattus norvegicus with 31 samples.

Results

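Cytochrome P450 genes were described in left ventricle RNA of rats of the HXB/BXH panel. They were taken as the genes of the deposited RefSeq table whose symbol has the form Cyp, number, letters, number, which gave 54 of 19100 genes. A total of 35 of the 54 also had an assembled gene of their own name among the 46063 genes that the authors assembled from the reads, 3 (Cyp26b1, Cyp4a8 and Cyp4f1) were named only in an assembled gene that carries other names too, and 16 were named in none. The libraries came from untreated male rats: 4 animals of SHR (SHR/OlaIpcv, the spontaneously hypertensive rat), 4 animals of BN-Lx (BN-Lx/Cub, a Brown Norway congenic strain), 12 HXB strains and 9 BXH strains. HXB and BXH are recombinant inbred strains bred from reciprocal crosses of these progenitors, each an inbred mosaic of both genomes. Each strain had 1 library, so that the strain was the replicate. All HXB strains carry the suffix Ipcv in their labels and all BXH strains the suffix Cub. Family and suffix therefore cannot be told apart. The labels used here give no age. The progenitors were compared by their assembled genes and the families by the RefSeq table. All values are log2 levels as the authors deposited them. They are not scaled to gene length, so levels of different genes are not compared, and the depth of the libraries is unknown.

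Cytochrome P450 enzymes are heme-containing monooxygenases that insert oxygen into drugs, fatty acids, steroids, bile acids, retinoids and vitamin D. Most sit in the endoplasmic reticulum and take electrons from P450 oxidoreductase, whereas the mitochondrial enzymes take them from ferredoxin and its reductase. Many drug-metabolising P450 enzymes are made above all in the hepatocyte, while the 2J enzymes, which form epoxides of arachidonic acid, are also known from the heart. Alb encodes serum albumin, which the hepatocyte makes. The comparison with Alb asked which P450 genes moved with a hepatocyte product from strain to strain and which kept a level of their own.

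The ventricle label held for its markers, the mean log2 level of 6 cardiomyocyte genes running from 17.75 to 18.16 over the 21 strains. Alb ran from 9.71 in HXB31 over a median of 11.98 to 13.69 in BXH5, with no strain between 10.67 (BXH9) and 11.61 (HXB3). A set of 8 strains, all sequenced in batch 3, lay under this gap and 13 strains lay over it, among them the 6 strains of batch 2. Library medians over all genes ran from 7.89 to 7.97 in the RefSeq table and from 3.99 to 4.73 in the assembled table.

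The bases before the transcription start are shown for 3 genes that followed Alb and for 1 that did not. These sets differed in motifs that were picked after their counts were seen. Each is the 250 bases before the start in RefSeq's annotation of GRCr8, 5′ to 3′ on the strand of the gene. Capitals mark TATAAA (the letters of a TATA box), TGTTTAC (a forkhead factor motif) and GCGTG or its reverse complement CACGC (the core motif of the aryl hydrocarbon receptor). They are marked at any position, so that a marked TATAAA need not be a TATA box. Cyp2c11, the male-specific 2C enzyme of rat liver, is shown from chr1:246174966-246175215 (plus strand), and Cyp2c22, of the same subfamily, from chr1:248980768-248981017 (minus strand). Cyp1a2, the caffeine-oxidising enzyme of the hepatocyte, is shown from chr8:66978150-66978399 (minus strand), and Cyp4f6, of the leukotriene and fatty acid hydroxylase subfamily, from chr7:12708379-12708628 (minus strand).
Cyp2c11: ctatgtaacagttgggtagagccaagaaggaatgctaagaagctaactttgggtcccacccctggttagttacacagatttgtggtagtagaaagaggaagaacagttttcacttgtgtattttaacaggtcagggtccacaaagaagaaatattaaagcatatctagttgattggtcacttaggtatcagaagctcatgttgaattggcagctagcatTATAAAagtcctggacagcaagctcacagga
Cyp2c22: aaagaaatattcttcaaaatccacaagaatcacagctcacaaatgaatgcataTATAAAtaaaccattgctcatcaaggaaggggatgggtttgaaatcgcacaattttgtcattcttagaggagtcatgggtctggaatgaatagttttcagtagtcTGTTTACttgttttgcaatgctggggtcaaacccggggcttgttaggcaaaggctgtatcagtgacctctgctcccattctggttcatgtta
Cyp1a2: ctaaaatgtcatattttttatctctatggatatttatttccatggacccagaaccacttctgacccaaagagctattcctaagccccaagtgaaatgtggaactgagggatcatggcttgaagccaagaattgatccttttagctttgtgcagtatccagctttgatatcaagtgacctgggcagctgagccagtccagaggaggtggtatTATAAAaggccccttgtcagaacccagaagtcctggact
Cyp4f6: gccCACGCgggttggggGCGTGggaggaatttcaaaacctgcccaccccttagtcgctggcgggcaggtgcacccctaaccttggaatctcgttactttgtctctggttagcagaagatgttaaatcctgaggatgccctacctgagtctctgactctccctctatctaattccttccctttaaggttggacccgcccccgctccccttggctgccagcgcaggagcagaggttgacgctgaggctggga

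TATAAA began 31 bases before the start of Cyp2c11, 39 before that of Cyp1a2 and 197 before that of Cyp2c22, which also held TGTTTAC 92 bases before the start. Cyp4f6 held neither, but CACGC 247 and GCGTG 233 bases before the start. RefSeq gave a window for 45 of the 54 genes, 17 of which followed Alb by the test below and 28 of which did not. On either strand, TATAAA occurred in 8 of the 17 and in 4 of the 28, against 12.9% of all 33469 windows. TGTTTAC occurred in 5 of the 17 and in 1 of the 28, against 3.21% of all windows. GCGTG occurred in 1 of the 17 and in 10 of the 28, against 25.9% of all windows. CAAAGTCCA, a motif of the hepatocyte factor HNF4, was found in Cyp3a2 alone, against 0.338% of all windows, and TTGCGCAA, a C/EBP motif, in none of the 45, against 0.14%. The median number of CpG pairs was 1 (0 to 4) in the 17 windows and 5.5 (0 to 26) in the 28, against 6 over 27457 genes. The median GC content was 44% in the 17 and 55.2% in the 28, against 52% over these genes. The motif counts were not adjusted for this difference. These counts are a description: the motifs were chosen after their counts were seen, and a match is not a bound site.

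A total of 21 of the 54 genes rose with Alb over the strains and none fell. Slopes on the log2 level of Alb were fitted with limma, with batch as a covariate, and called at a Benjamini-Hochberg adjusted p under 0.05 over all genes. The share called was 38.9% of the P450 genes, against 1.36% of all 19099 genes tested (1.35% with a positive and 0.0105% with a negative slope). The median slope was 0.04 over the 54 genes, against 3.79e-04 over all genes, and 0.34 over the 21, whose slopes lay between 0.21 and 0.67 log2 units per log2 unit of Alb. Of 15 other hepatocyte genes 14 were called, with a median slope of 0.79 over the 15, those with the smallest p being Fga (0.84), Fgb (0.84), Ahsg (0.94) and Apoh (0.72). Of the 21 P450 genes, 15 were highest in BXH5 and 5 in BXH8, the strains with the most Alb, and 15 were lowest in HXB31, the strain with the least. In these bulk samples, fewer cells of a type and less RNA per cell cannot be told apart. Where the RNA of Alb and the other hepatocyte genes came from was not tested.

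The steepest slopes were those of 4 liver enzymes. Cyp2d2, of the debrisoquine hydroxylase subfamily, ran from 4.38 over a median of 5.37 to 7.42, with a slope of 0.67 ± 0.06 (SE, n = 21 strains, limma adjusted p = 4.84e-08). Cyp3a2, a testosterone hydroxylase that is male-predominant in rat liver, ran from 5.40 over a median of 6.78 to 8.58, with a slope of 0.65 ± 0.05 (SE, n = 21 strains, limma adjusted p = 1.31e-08). Cyp2c23, an arachidonic acid epoxygenase known from rat kidney and liver, ran from 4.33 over a median of 5.31 to 7.50, with a slope of 0.64 ± 0.06 (SE, n = 21 strains, limma adjusted p = 8.95e-08). All 3 were lowest in HXB31 and highest in BXH5, as Alb was. Cyp2b3, of the phenobarbital-inducible subfamily, ran from 4.19 over a median of 4.97 to 7.32, with a slope of 0.64 ± 0.07 (SE, n = 21 strains, limma adjusted p = 1.94e-06). Cyp2c22 ran from 4.57 to 7.23 (slope 0.62) and Cyp1a2 from 3.98 to 6.70 (slope 0.60), both lowest in HXB31. The plot of levels against Alb sets the 4 steepest genes beside 4 genes that did not move with it.

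**Figure D1:**
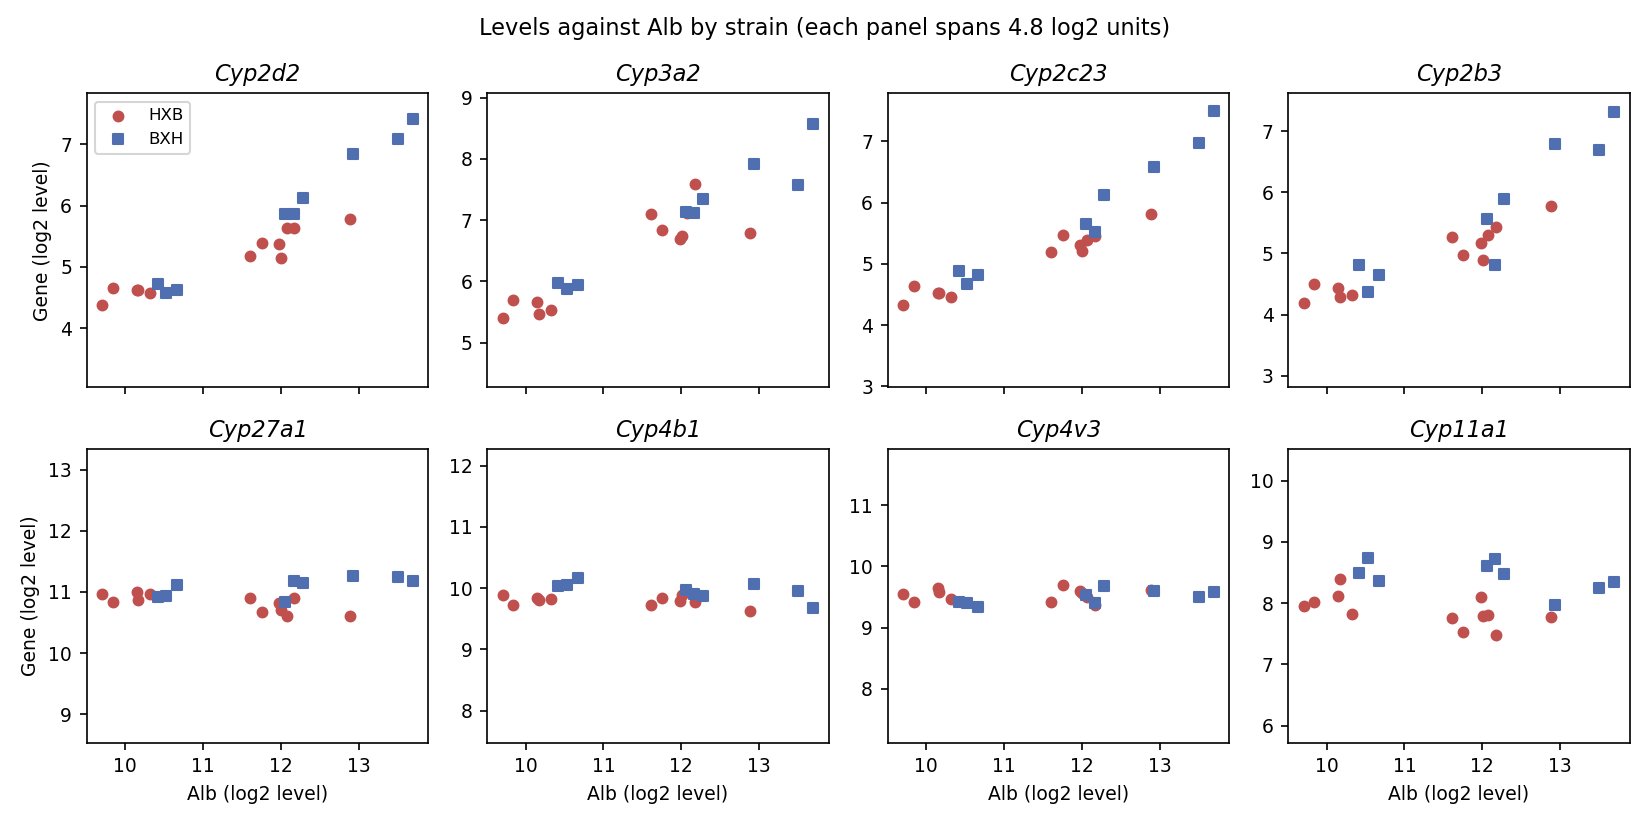
Log2 level of 8 cytochrome P450 genes (y axis) against the log2 level of Alb (x axis) in 12 HXB strains (circles) and 9 BXH strains (squares), 1 library each, every panel spanning the same number of log2 units. In the upper row Cyp2d2, Cyp3a2, Cyp2c23 and Cyp2b3 climb with Alb, with slopes of 0.64 to 0.67, and in the lower row Cyp27a1, Cyp4b1, Cyp4v3 and Cyp11a1 stay level, with slopes of -0.02 to 0.05.

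The other called genes of family 2, all of liver-expressed subfamilies, were Cyp2a1 (slope 0.38), Cyp2a2 (0.30), Cyp2c7 (0.44), Cyp2c11 (0.34), Cyp2c13 (0.34), Cyp2d3 (0.39) and Cyp2d5 (0.30). Of family 3, Cyp3a18 had a slope of 0.26 and Cyp3a73 of 0.27. Of the fatty acid hydroxylases of family 4, Cyp4a1, Cyp4a3, Cyp4f1 and Cyp4f4 had slopes of 0.22, 0.42, 0.24 and 0.21. Cyp2a2 and Cyp2c11 were just under the threshold (limma adjusted p = 0.048 and 0.041). Without BXH5, the strain with the most Alb, 17 of the 54 genes were called, against 232 of all 19099 genes. Cyp2a2, Cyp2c11, Cyp4f1 and Cyp4f4 lost the call there (limma adjusted p = 0.187, 0.108, 0.109 and 0.088). Cyp7a1, the rate-limiting enzyme of bile acid synthesis, ran from 2.94 over a median of 3.28 to 4.47, with a slope of 0.23 ± 0.04 (SE, n = 21 strains, limma adjusted p = 2.41e-04). Cyp8b1, the hydroxylase that leads to cholic acid, ran from 3.18 over a median of 3.55 to 4.95, with a slope of 0.28 ± 0.05 (SE, n = 21 strains, limma adjusted p = 3.86e-04). The size of a slope depended on the table: over the 12 called genes measured in both, the median was 0.34 in the RefSeq table and 0.68 in the assembled table, and 11 of the 12 were steeper in the assembled table. The exception was Cyp2d2, whose assembled gene of 2 exons did not track its RefSeq gene (r = 0.07 over the 21 strains, a description).

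A set of 29 genes had slopes between -0.10 and 0.05, a limit drawn after the slopes were seen. The widest 95% interval among them was that of Cyp26b1 (-0.20 to 0.18). The other 4 genes had larger positive slopes but missed the threshold, namely Cyp2c12 (slope 0.31, 95% interval 0.10 to 0.52), Cyp4a2 (0.23, 0.00 to 0.46), Cyp17a1 (0.20, 0.06 to 0.33) and Cyp2d1 (0.14, -0.07 to 0.35).

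**Figure D2:**
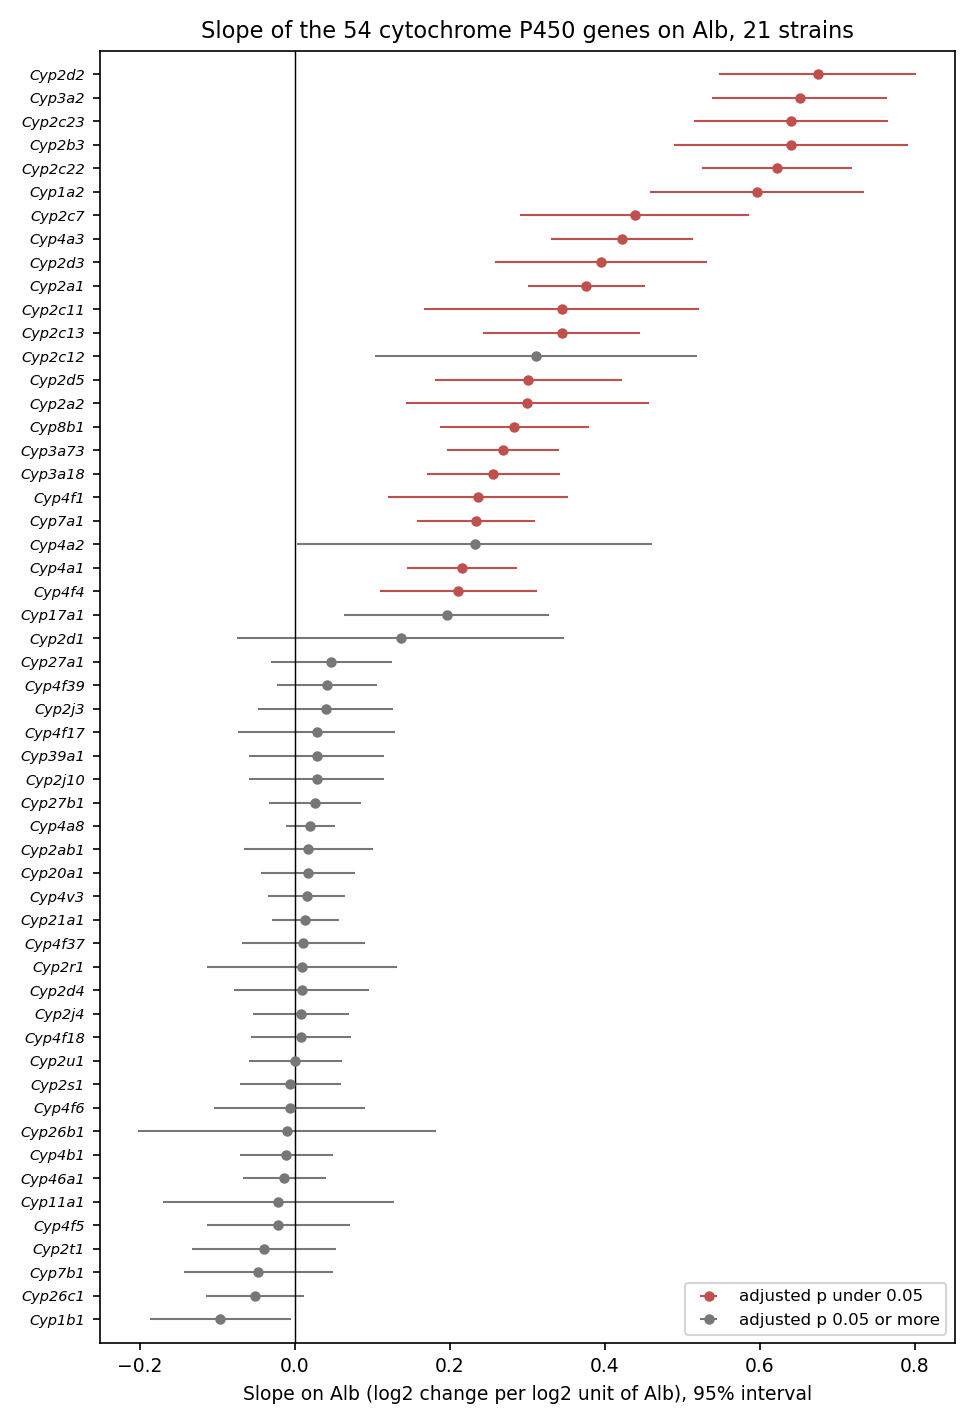
Slope of each of the 54 genes on Alb over 21 strains (x axis, log2 change per log2 unit of Alb, with its 95% interval), 1 gene per row (y axis), genes with an adjusted p under 0.05 set apart by colour. The called genes span 0.21 to 0.67, and 29 of the others lie between -0.10 and 0.05.

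Since Alb fell into a low and a high set of strains, no correlation was computed over all 21. Within the 13 strains with high Alb, 14 of the 54 genes correlated with Alb after adjustment over all genes (permutation test, two-sided), against 1.25% of all genes. Cyp2c23 had r = 0.97 (rho = 0.93, adjusted permutation p = 0.0069 for r and 0.018 for rho), and r = 0.87 without BXH5 and BXH8, the 2 strains farthest from the median. Cyp2d2 had r = 0.94 (rho = 0.91, adjusted permutation p = 0.0048 for r and 0.029 for rho), and r = 0.83 without these 2. Cyp27a1 had r = 0.54 (rho = 0.45, adjusted permutation p = 0.567 for r and 0.496 for rho), and r = 0.24 without them. Within the 8 strains with low Alb, none of the 54 passed the adjustment (exact permutation test) and 4 had an unadjusted p under 0.05, against 0% and 11.1% of all genes. Within the 6 strains of batch 2, 15 of the 54 genes were called on Alb, against 1.21% of all genes, and within the 15 strains of batch 3, 17 of 54, against 1.17%. In batch 2 Alb was at 13.69 in BXH5 and at 11.61 to 12.28 in the other strains. Slopes within batch 2 thus rest largely on BXH5, which is 1 library. The 21 genes had median slopes of 0.68 and 0.33 in batches 2 and 3. Their median slope was 0.64 in the 13 strains with high Alb and 0.19 in the 8 with low Alb. The slopes over all 21 strains thus need not hold within either set. These medians are a description, since the genes were chosen on the same strains. In the pair of repeat libraries of SHR replicate 4 in the RefSeq table, which are 1 animal, Alb differed by 0.52, and 17 of the 21 genes were higher in the library with more Alb (median difference 0.19), as were 20 of the other 33 (median difference 0.06). The labels give batches 2 and 3 for the later libraries of this animal, so that Alb and batch cannot be told apart in this pair.

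The genes that were not called included 6 that are given here by their range over the strains. Cyp27a1, the mitochondrial sterol hydroxylase, ran from 10.61 over a median of 10.92 to 11.27 (slope 0.05, 95% interval -0.03 to 0.13). Cyp4b1, a fatty acid and xenobiotic hydroxylase known from lung, ran from 9.62 over a median of 9.88 to 10.16 (slope -0.01, -0.07 to 0.05). Cyp4v3, a fatty acid hydroxylase, ran from 9.34 over a median of 9.53 to 9.70 (slope 0.02, -0.03 to 0.06). The lowest and the highest strain lay less than 1 log2 unit apart in each of these. Cyp20a1 ran from 9.0 over a median of 9.26 to 9.47 (slope 0.02, -0.04 to 0.08). Cyp4f6 ran from 8.82 over a median of 9.20 to 9.60 (slope -0.01, -0.10 to 0.09). Cyp2u1, a long-chain fatty acid hydroxylase, ran from 8.26 over a median of 8.54 to 8.72 (slope 0.00, -0.06 to 0.06). The median SD over the strains was 0.58 for the 21 called genes and 0.20 for the 33 others. Both sets were formed by the slope on Alb over these same strains, so that this difference follows largely from the choice.

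Of the 2J subfamily, Cyp2j3 ran from 6.15 to 6.79, Cyp2j4 from 7.77 to 8.34 and Cyp2j10 from 3.92 to 4.57, with slopes of 0.04, 0.01 and 0.03. Of the 4F subfamily, Cyp4f5 ran from 8.05 to 8.96, Cyp4f17 from 6.78 to 7.59 and Cyp4f37 from 6.57 to 7.23, with slopes of -0.02, 0.03 and 0.01. Members of 1 subfamily thus lay on both sides, since Cyp4f1 and Cyp4f4 were called. Levels of the remaining members that were not called ran from 2.69 to 3.48 for Cyp2ab1, 3.23 to 3.74 for Cyp2s1, 6.40 to 7.25 for Cyp2t1, 0.78 to 1.11 for Cyp4a8, 2.47 to 3.04 for Cyp4f18 and 2.28 to 2.90 for Cyp4f39. In the 2D subfamily Cyp2d4 was not called (slope 0.01), unlike Cyp2d2, Cyp2d3 and Cyp2d5. Cyp1b1, which oxidises oestradiol outside the liver, had the lowest slope of the 54 (-0.10, 95% interval -0.19 to -0.01, not called), with levels from 7.09 over a median of 7.75 to 8.0. Reads of near-identical genes of the 2C, 2D, 3A and 4A subfamilies may have been split between copies before deposit, so that values of single members there are uncertain.

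The steroid, retinoid and vitamin D enzymes are given by their levels. Cyp11a1, the mitochondrial side-chain cleavage enzyme that starts steroid synthesis from cholesterol, ran from 7.49 over a median of 8.10 to 8.74 (slope -0.02, 95% interval -0.17 to 0.13). Cyp17a1, an enzyme of androgen synthesis, ran from 3.56 over a median of 3.95 to 5.18, and Cyp21a1, of the path to corticosterone, from 0.92 over a median of 1.02 to 1.27. The mean of 2 adrenal cortex markers ran from 2.64 to 3.06 over the strains. Of the retinoic acid hydroxylases, Cyp26b1 ran from 6.22 over a median of 7.08 to 8.09 and Cyp26c1 from 2.49 over a median of 2.66 to 3.09. Cyp2r1, the main enzyme of the first step of vitamin D activation, ran from 4.93 over a median of 5.48 to 5.93, and Cyp27b1, of the last step, from 3.41 over a median of 3.71 to 3.90. Of the oxysterol enzymes, Cyp7b1 ran from 5.26 to 6.17, Cyp39a1 from 4.35 to 5.43 and Cyp46a1, a cholesterol hydroxylase known from neurons, from 1.68 to 2.3. None of these genes was called on Alb.

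The redox partners and eicosanoid enzymes were not called on Alb either. Only 1.36% of all genes were called, so that a list this short would mostly hold no call. A count of 0 therefore says little about the genes of a list. Of 10 redox partners (P450 oxidoreductase, the cytochrome b5 system and the ferredoxin pair among them) 0 were called by limma, with slopes between -0.04 and 0.07. Of 11 epoxide hydrolases and eicosanoid enzymes 0 were called, with slopes between -0.10 and 0.07. Of 14 measured regulators 3 were called: Hnf4a, a nuclear receptor of the hepatocyte, with a slope of 0.43 ± 0.05 (SE, limma adjusted p = 1.82e-06), Nr1i3, the receptor CAR, with 0.13, and Nr1h4, the bile acid receptor, with 0.13. Of 2 measured genes of the enterocyte list, Apoa4, which rat liver also makes, was called (slope 0.48). The lists of cardiomyocyte, fibroblast, endothelium, pericyte and smooth muscle, macrophage, mesothelium, Schwann cell, erythroid, adipocyte and adrenal cortex genes had 0 members called by limma. None of the 5 kidney tubule and 4 lung epithelium genes of the lists was measured.

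Cyp2c12 and Cyp2c7 stood above their fit on Alb in HXB17, where most genes that followed Alb lay below it. Cyp2c11 was at 5.10 in HXB17, the lowest level of all strains beside that of HXB7, with a median of 5.76 and a highest level of 8.49 (BXH5) in the other 20. Cyp2c12, the female-specific 2C enzyme of rat liver, was at 5.60 in HXB17, the highest level of all strains, against 3.05 to 4.91 with a median of 3.26 in the other 20. Cyp2c11 minus Cyp2c12 was -0.50 in HXB17, against 1.93 to 3.75 in the other strains. As deviations from the fit on Alb and batch, Cyp2c11 was at -1.06 in HXB17, against -0.44 to 1.16 in the other strains, and Cyp2c12 at 1.69 in HXB17, against -0.65 to 0.65 in the other strains. Cyp2c7, which is female-predominant, deviated by 0.79 in HXB17, against -0.72 to 0.45 in the other strains. Cyp3a2 deviated by -0.65 in HXB17, against -0.26 to 0.62 in the other strains.

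Of the genes known to be male-predominant in rat liver (Cyp2c11, Cyp2c13, Cyp3a2, Cyp2a2, Cyp3a18 and Cyp4a2), 6 of 6 lay below their fit in HXB17. So did 36 of all 54 P450 genes and 18 of the 21 that followed Alb. Of the 14 of these 21 that are in neither list of sex-predominant genes 12 lay below it, among them Cyp4f1 (-0.80), Cyp1a2 (-0.57) and Cyp2d2 (-0.52), so that the male-predominant genes did not differ from most others in direction. Of the female-predominant genes Cyp2c12, Cyp2c7 and Cyp2a1, 2 of 3 lay above it, and Cyp2a1 deviated by -0.13. These genes and this strain were chosen after their values were seen and carry no test. Alb was at 12.88 in HXB17. Y-linked genes were present there, Ddx3y at 3.82, against 3.12 to 3.88 in the other strains, and Eif2s3y at 10.22, against 9.22 to 10.28. Without HXB17 the slope of Cyp2c11 on Alb was 0.42 ± 0.08 (SE, n = 20 strains, limma adjusted p = 0.0014), against 0.34 ± 0.09 (SE, limma adjusted p = 0.041) with it. That of Cyp2c12 was 0.18 without HXB17, against 0.31 with it, and the same 21 genes were called, against 1.37% of all genes.

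**Figure D3:**
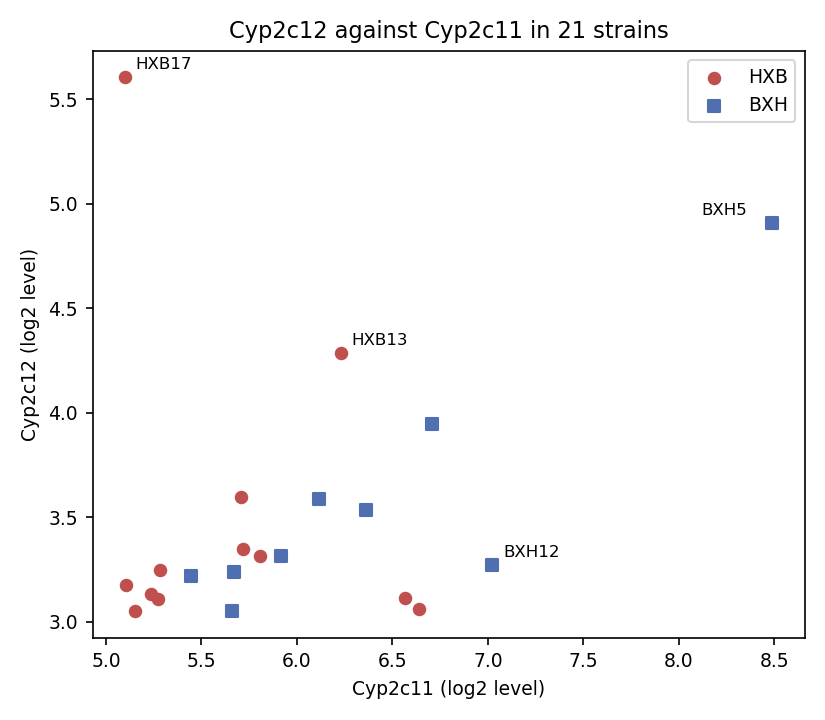
Log2 level of Cyp2c12 (y axis) against Cyp2c11 (x axis) in 12 HXB strains (circles) and 9 BXH strains (squares), 1 library each. HXB17 stands alone at the upper left, with 5.60 for Cyp2c12 and 5.10 for Cyp2c11, whereas BXH5 is high for both, at 4.91 and 8.49.

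Other strains deviated most for single genes. Cyp4a2, a fatty acid hydroxylase that is male-predominant in rat liver, was at 5.66 in BXH12 and deviated there from the fit by 1.89, against -0.81 to 0.86 in the other strains. Cyp26b1 was at 8.09 in HXB24 and deviated by 0.98, against -0.88 to 0.62. Its deviations spread widely over the strains (SD 0.49), with 1 mode, so that HXB24 did not stand apart. In a mixture fit (mclust) 22 of the 54 genes (40.7%) had more than 1 mode over the strains, against 15.6% of all genes. After the fit on Alb and batch this held for 10 of 54 (18.5%), against 13.5% of all genes.

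Between the progenitors, 10 of the 35 P450 genes with an assembled gene of their own were lower in SHR than in BN-Lx and 3 were higher (limma, adjusted p under 0.05 over 46063 genes). The shares were 28.6% and 8.57%, against 6.95% and 7.38% of all assembled genes, or 37.1% against 14.3% in either direction. The median difference of the 35 genes was -0.52, against 0.0117 over all assembled genes. Alb was at 11.39, 9.71, 11.59 and 9.53 in SHR, against 12.59, 11.12, 12.21 and 14.14 in BN-Lx (difference -1.96 ± 0.58, SE, n = 4 each, limma adjusted p = 0.039), and 6 of 11 hepatocyte genes were lower in SHR, those with the smallest p being Fgb (-2.40), Fga (-2.44), Apoh (-2.01) and Apoa2 (-1.96). The mean of these 11 was 6.97, 5.60, 7.08 and 5.33 in SHR, against 8.05, 6.92, 7.69 and 9.70 in BN-Lx. Of the 12 tested genes that followed Alb over the strains 5 were called, and of the 23 others 8. Without SHR replicate 4 the test called 7 of the 35 genes, against 9.5% of all genes, and without BN-Lx replicate 4 it called 8, against 11.5%. Cyp11a1 and Cyp2r1 alone remained called when Alb was a covariate (5.71% of the 35 genes), and the share of all assembled genes called also fell, to 4.02% in that fit, against 14.3% without the covariate.

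Cyp11a1 was at 7.69, 7.38, 7.71 and 7.33 in SHR, against 8.42, 8.39, 8.32 and 8.32 in BN-Lx (difference -0.83 ± 0.12, SE, n = 4 each, limma adjusted p = 4.90e-04). Cyp2r1 was at 5.76, 5.75, 5.60 and 5.81 in SHR, against 6.74, 6.65, 6.78 and 6.65 in BN-Lx (difference -0.97 ± 0.14, SE, n = 4 each, limma adjusted p = 5.36e-04). Neither gene overlapped between the strains, as held for 11 of the 35 genes (31.4%) and 20.6% of all assembled genes. With the Alb covariate the differences were -0.70 ± 0.17 (SE, limma adjusted p = 0.036) and -1.03 ± 0.21 (SE, limma adjusted p = 0.016). The assembled Cyp11a1 lies at chr8:58422807-58434342 of rn7 (plus strand, 11 exons) and the assembled Cyp2r1 at chr1:168733640-168798079 (minus strand, 14 exons).

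Cyp27a1 was at 10.60, 10.38, 10.39 and 10.30 in SHR, against 11.13, 10.81, 10.89 and 10.93 in BN-Lx (difference -0.52 ± 0.09, SE, n = 4 each, limma adjusted p = 0.0022), without overlap. Cyp2j10 was at 3.81, 3.48, 3.42 and 3.49 in SHR, against 4.43, 4.46, 4.63 and 4.91 in BN-Lx (difference -1.06 ± 0.24, SE, n = 4 each, limma adjusted p = 0.012), again without overlap. With the Alb covariate the differences were -0.41 ± 0.13 for Cyp27a1 and -0.85 ± 0.35 for Cyp2j10 (SE), and neither was called (limma adjusted p = 0.105 and 0.222). Beside these genes, 2 of 3 mesothelial markers were lower in SHR (Upk3b -1.07 and Msln -1.04), as were 2 of 3 macrophage markers (Cd163 -0.65 and Mrc1 -0.35) and 2 of 4 cardiomyocyte markers (Tnni3 -0.47 and Tnnt2 -0.30). Of 5 endothelial markers 4 were higher in SHR (0.34 to 0.44), of 5 pericyte and smooth muscle markers 2 (Acta2 and Cspg4), and of 5 fibroblast markers 1 was higher (Col1a1) and 1 lower (Dcn). Their part in the differences was not tested.

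The other 6 lower genes varied more within each strain. Cyp2c11 was at 3.98, 4.51, 4.82 and 4.27 in SHR, against 6.15, 4.79, 5.83 and 6.70 in BN-Lx (difference -1.47 ± 0.35, SE, n = 4 each, limma adjusted p = 0.014), so that BN-Lx replicate 2 lay within the SHR range. Cyp17a1 was at 2.55, 3.36, 3.67 and 2.99 in SHR, against 4.43, 3.77, 4.28 and 5.94 in BN-Lx (difference -1.46 ± 0.43, SE, n = 4 each, limma adjusted p = 0.04). Cyp3a18 was at 3.52, 2.75, 3.40 and 2.05 in SHR, against 4.99, 3.69, 4.37 and 5.53 in BN-Lx (difference -1.71 ± 0.43, SE, n = 4 each, limma adjusted p = 0.019). In all 3, BN-Lx replicate 4, the library with the most Alb, was the highest, and BN-Lx replicate 2, with the least Alb of its strain, the lowest BN-Lx library. Cyp2a2, Cyp2b3 and Cyp2c13 differed by -1.89 ± 0.47, -1.99 ± 0.55 and -1.77 ± 0.41 (SE, limma adjusted p = 0.018, 0.031 and 0.013), with overlap in each. With the Alb covariate the differences of these 6 genes lay between -0.75 (Cyp2c11) and -0.29 (Cyp2b3), and none was called.

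Of the 3 higher genes, Cyp4f6 was at 9.30, 9.32, 9.03 and 9.21 in SHR, against 8.76, 8.73, 8.78 and 8.85 in BN-Lx (difference 0.44 ± 0.09, SE, n = 4 each, limma adjusted p = 0.0081). Cyp46a1 was at 6.74, 6.56, 6.58 and 6.85 in SHR, against 6.04, 6.22, 6.28 and 6.13 in BN-Lx (difference 0.52 ± 0.14, SE, n = 4 each, limma adjusted p = 0.028), and its assembled gene tracked the RefSeq gene less closely than most (r = 0.53 over the 21 strains, a description). Cyp7b1, which inactivates oxysterols, was at 5.92, 6.18, 6.24 and 6.22 in SHR, against 5.65, 5.69, 5.64 and 5.54 in BN-Lx (difference 0.51 ± 0.15, SE, n = 4 each, limma adjusted p = 0.046). None of the 3 overlapped between the strains. With the Alb covariate the differences were 0.43, 0.45 and 0.41, and none was called. Cyp4f5 and Cyp26c1 did not overlap either but missed the threshold, with differences of 0.28 (95% interval 0.08 to 0.47) and 0.66 (-0.02 to 1.33).

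**Figure D4:**
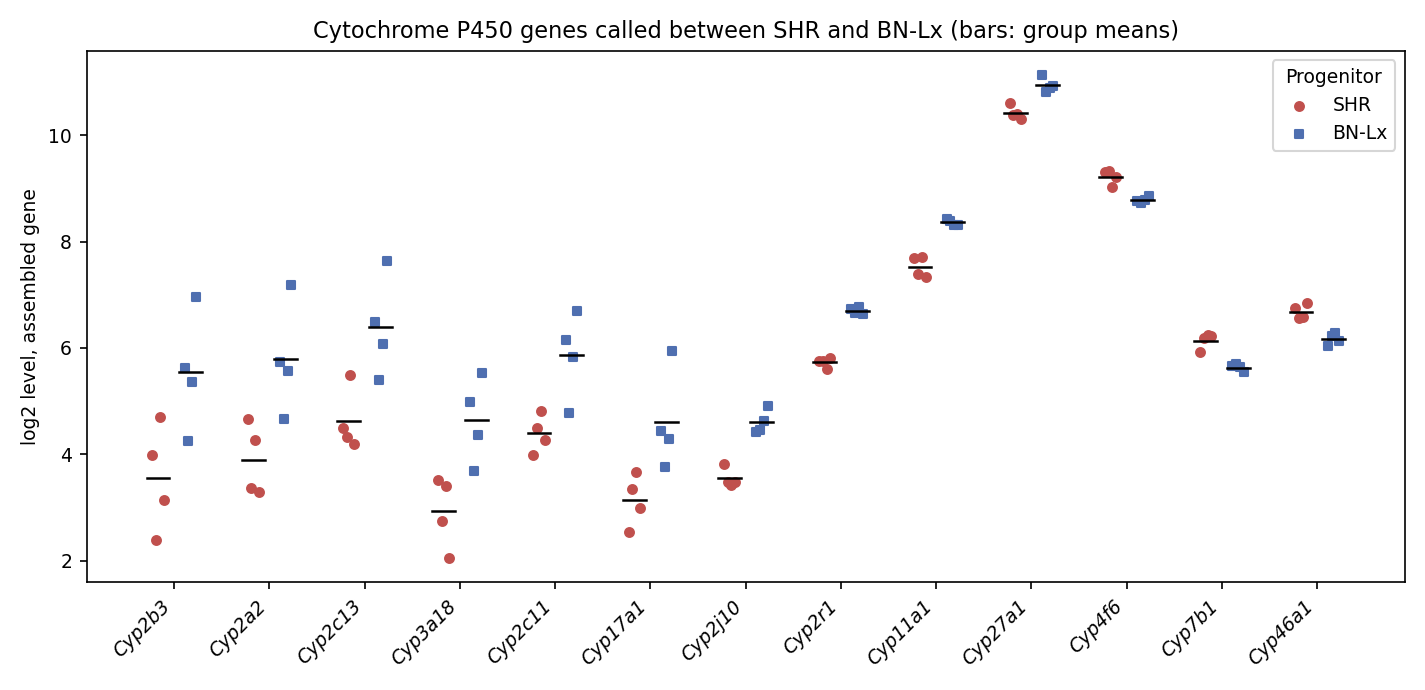
Log2 level of the assembled gene (y axis) for the 13 P450 genes called between SHR (circles) and BN-Lx (squares), 4 libraries each, with bars at the group means, genes along the x axis. Cyp2b3, Cyp2a2 and Cyp2c13 differ most and spread widely within each strain, whereas Cyp2r1 and Cyp11a1 have tight groups with differences of -0.97 and -0.83.

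Counts of partners between the progenitors stand against 14.3% of all assembled genes called in either direction. Of 8 redox partners 1 was called, Cyb5b, a cytochrome b5 of the outer mitochondrial membrane, which was lower in SHR (difference -0.49 ± 0.06, SE, limma adjusted p = 1.63e-04). Of 11 regulators, Ppara, the fatty acid receptor that drives 4A genes, and Nr5a2, which acts on Cyp7a1 and Cyp8b1, were higher (0.43 and 1.17) and Nfe2l2, the oxidative stress factor, was lower (-0.28). Of 9 epoxide hydrolases and eicosanoid enzymes 1 was called, Alox5, which starts leukotriene synthesis (-0.51).

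Between the families, 15 of the 54 P450 genes were lower in HXB than in BXH and 1 was higher (limma with batch as a covariate, adjusted p under 0.05 over all genes). The shares were 27.8% and 1.85%, against 17.8% and 18.5% of all 19100 genes. In either direction they were 29.6% of the P450 genes and 36.3% of all genes, and without HXB17 they were 38.9% of the P450 genes (21 of 54) and 34.4% of all genes, so that 1 strain set which share was the larger. The median difference was -0.19 over the 54 genes and -0.0054 over all genes. Alb averaged 11.22 ± 1.10 in HXB and 12.03 ± 1.25 in BXH (SD, n = 12 and 9), a difference of -0.73 (95% interval -1.65 to 0.18, limma adjusted p = 0.201). All 16 genes overlapped between the families. A fit with the Alb covariate called 15 genes (27.8%, against 36.7% of all genes), 11 of them among the 16. The 4 others were Cyp2c13 (0.27), Cyp2r1 (0.33), Cyp2t1 (-0.25) and Cyp46a1 (-0.14).

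Cyp11a1 had the smallest p of the 54. It ran from 7.49 over 7.81 to 8.40 in HXB and from 7.96 over 8.47 to 8.74 in BXH, with a difference of -0.57 ± 0.11 (SE, limma adjusted p = 5.53e-04). Cyp27a1 averaged 10.82 ± 0.14 in HXB and 11.09 ± 0.15 in BXH (SD, n = 12 and 9), with a difference of -0.28 ± 0.06 (SE, limma adjusted p = 0.0015). Cyp17a1 ran from 3.56 over 3.83 to 4.07 in HXB and from 3.74 over 4.20 to 5.18 in BXH, with a difference of -0.48 ± 0.14 (SE, limma adjusted p = 0.0081). Of these steroid and sterol enzymes, Cyp11a1 and Cyp27a1 are mitochondrial. Cyp4b1 ran from 9.62 over 9.81 to 9.95 in HXB and from 9.68 over 9.96 to 10.16 in BXH, with a difference of -0.17 ± 0.05 (SE, limma adjusted p = 0.014). Cyp4f5 and Cyp4f6 were lower in HXB (-0.27 and -0.28, limma adjusted p = 0.01 and 0.014), and Cyp4f17 was higher (0.29, limma adjusted p = 0.014). All 7 remained called with the Alb covariate. Between the progenitors, Cyp11a1, Cyp17a1 and Cyp27a1 were lower in SHR and Cyp4f6 was higher.

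The other 9 lower genes were among those that followed Alb: Cyp1a2 (difference -0.80), Cyp2c11 (-0.63), Cyp2c23 (-0.78), Cyp2d2 (-0.77), Cyp2d5 (-0.56), Cyp4a1 (-0.34), Cyp4a3 (-0.52), Cyp4f1 (-0.40) and Cyp4f4 (-0.39). With the Alb covariate Cyp1a2, Cyp2c23, Cyp2d5 and Cyp4a1 remained called, with differences of -0.41, -0.35, -0.38 and -0.20. The adjusted p of Cyp2d2 was 0.0496, just under the threshold in limma. Of the 21 genes called without HXB17, against 34.4% of all genes, 20 were lower in HXB, the additions being Cyp2b3, Cyp2c7, Cyp2d3, Cyp3a73 and Cyp8b1.

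The counts of partners and regulators that follow stand against 36.3% of all genes called in either direction. Of the 10 redox partners 3 were lower in HXB, Cyb5r3, which reduces cytochrome b5 (-0.38), and the ferredoxin pair Fdx1 (-0.32) and Fdxr (-0.19), which serves the mitochondrial enzymes. Of 11 epoxide hydrolases and eicosanoid enzymes 5 were lower, among them Ptgis (-0.29) and Tbxas1 (-0.38), the prostacyclin and thromboxane synthases, Alox5 (-0.32) and Ptgs1 (-0.26). Of 14 regulators 4 were lower, among them Nr0b2 (-0.40), Cebpa (-0.44) and Rxra (-0.24), and Nfe2l2 was higher (0.15). Of 16 hepatocyte markers 2 were lower (Serpina1 and Serpinc1), and the mean of the 16 ran from 6.22 to 8.22 in HXB and from 6.52 to 9.45 in BXH. Of 3 mesothelial markers 2 were lower (mean 7.22 to 8.05 in HXB and 7.54 to 8.64 in BXH), and of 4 macrophage markers 2 (mean 9.64 to 10.03 in HXB and 9.81 to 10.20 in BXH). Of 6 cardiomyocyte markers Tnni3 (-0.28) and Actc1 (-0.24) were lower and Ryr2 (0.22) was higher, and of 5 endothelial markers Pecam1 (-0.15) and Egfl7 (-0.16) were lower and Kdr (0.14) was higher. Of 5 pericyte and smooth muscle markers Myh11 (0.26) and Rgs5 (0.19) were higher, as was Lum (0.23) of 5 fibroblast markers. Their part in the differences was not tested.

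**Figure D5:**
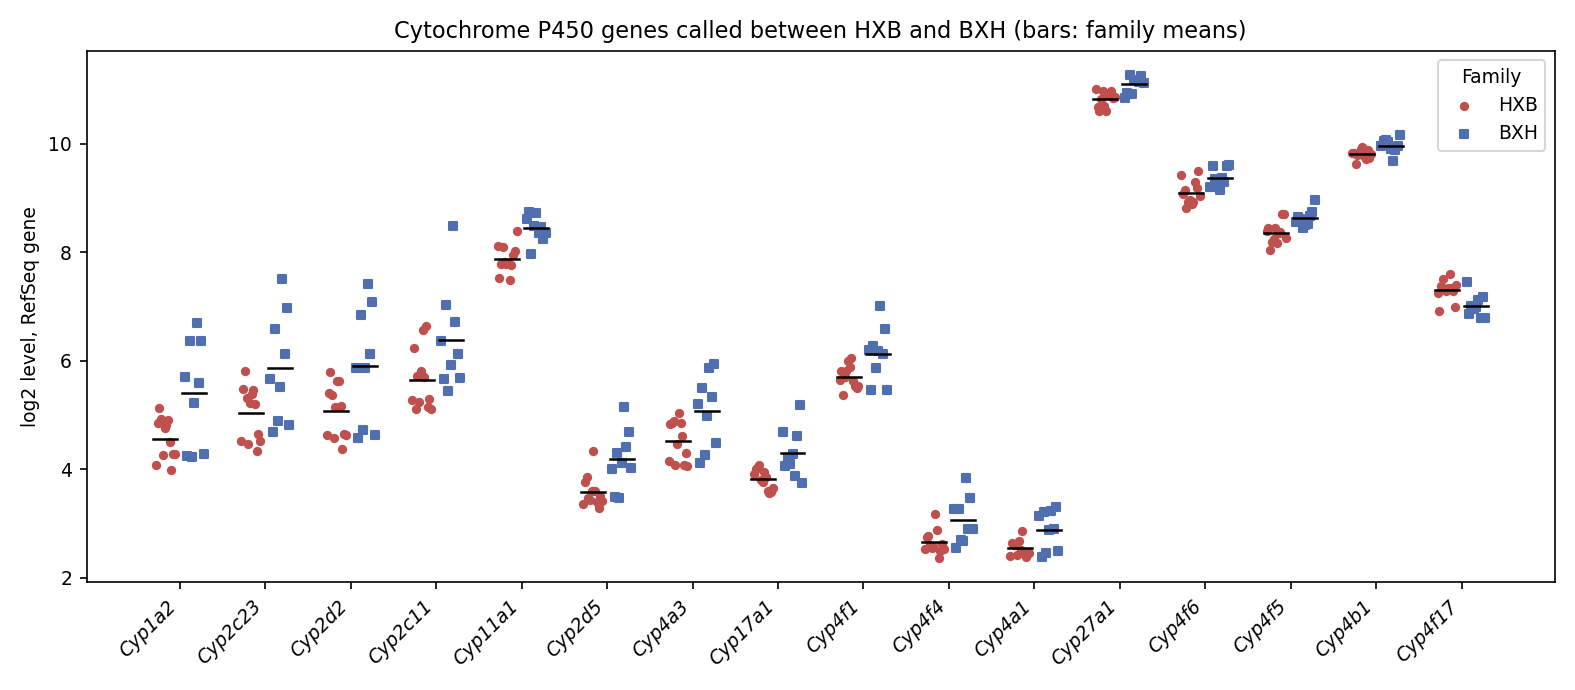
Log2 level of the RefSeq gene (y axis) for the 16 P450 genes called between 12 HXB strains (circles) and 9 BXH strains (squares), 1 library each, with bars at the family means, genes along the x axis. Cyp1a2, Cyp2c23 and Cyp2d2 differ most, by -0.80, -0.78 and -0.77, with wide overlap, and only Cyp4f17 of these 16 is higher in HXB.

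The slope on Alb was also compared between the families. For Cyp1a2 it was 0.33 ± 0.05 in HXB and 0.76 ± 0.05 in BXH (difference -0.43 ± 0.07, all SE, limma adjusted p = 0.0064). For Cyp2d2 it was 0.42 ± 0.04 in HXB and 0.85 ± 0.05 in BXH (difference -0.43 ± 0.06, all SE, limma adjusted p = 0.005). These were 2 of 54 genes called (3.7%), against 0.115% of all genes. Cyp27a1, level over all strains, had slopes of -0.08 ± 0.03 in HXB and 0.10 ± 0.03 in BXH. Their difference was not called (-0.17 ± 0.04, all SE, limma adjusted p = 0.18). Cyp11a1 had slopes of -0.13 ± 0.06 in HXB and -0.10 ± 0.06 in BXH (SE). Alb ran from 9.71 to 12.88 in HXB and from 10.42 to 13.69 in BXH, so that the slopes were taken over different ranges.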

How the data were processed

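RNA was sequenced from left ventricle after removal of ribosomal RNA. The authors deposited log2 values for RefSeq genes and for genes assembled from the reads. In the order of the alphabet, the submitters' processing notes list Bowtie2 (2.3.4.3), cutadapt (1.9.1), DESeq2, HISAT2 (2.1.0), RSEM (1.3.1) and StringTie (1.3.5), and the build rn7. Which step each served is not given in the sources used here, nor is the transformation. Spike-in rows were left out, 69 of the RefSeq table and 70 of the assembled one. The members and lists were chosen with earlier results of these data known. Named are all P450 genes called in a fit, the 6 with the highest mean (a rule of choice only, since levels are not scaled to length), the 4 steepest slopes, the steroid, retinoid and vitamin D enzymes, and up to 4 called genes of each list of partners, regulators and liver genes by smallest p. Genes outside this rule (other 2J, 4F and oxysterol enzymes, Cyp1b1, Cyp2d4, markers of other cells, and genes of single strains) were named after their values were seen. 1 gene of the name pattern is not reported here. Where several assembled genes carried 1 symbol only, that with the highest progenitor mean was used. RefSeq and assembled levels correlated over the strains with a median r of 0.95 for 35 genes, under 0.6 for 4 (Cyp27b1, Cyp2d2, Cyp2j3 and Cyp46a1).

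Linear models were fitted in limma 3.58.1 (R 4.3.3) with a trend of variance on level, and two-sided p were adjusted by Benjamini-Hochberg over the whole table, called under 0.05. Progenitor fits held 4 libraries a strain, with the earliest library of SHR replicate 4, and strain fits held batch. Permutation tests of batch-centred values drew 100000 resamples for 13 strains and were exact for 8. The planned correlation over 21 strains was replaced by these. Modes came from mclust 6.1.1, with up to 3 components. Python 3.11.15, numpy 2.4.6, pandas 2.3.3, scipy 1.17.1 and matplotlib 3.10.9 were used. Later libraries of SHR replicate 4 could not be assigned to a batch from their column names. No label says whether animals were littermates, so p measures the spread between libraries sampled. In simulated data, 8%, 38%, 76% and 94% of progenitor differences of 0.5, 1, 2 and 4 were recovered, 20%, 78%, 94% and 98% of slopes of 0.1, 0.2, 0.4 and 0.8, and 82% of family differences of 0.5. Alternatives covered trend, normalization, low values, left-out libraries, covariates and the table. Those by Alb set, without HXB17, without BXH5 and with hepatocyte markers as a covariate were chosen after seeing the data.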

Additional observations from a re-analysis of the deposited data

Results flagged for a closer look

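In groups of 4 or 9 libraries, a value was taken to stand apart when its gap to the nearest other value was a large part of the group's range. This held for 4 of 124 groups of P450 values, where chance gives about 1 in 20. In SHR replicate 4 Cyp2j3 was at 7.84, against 7.94 to 7.95 in the other SHR libraries. In BXH5 Cyp2c12 was at 4.91, against 3.05 to 3.95 in the other BXH strains, and Cyp39a1, an oxysterol hydroxylase, at 5.43, against 4.45 to 4.86. In BXH9 Cyp46a1 was at 2.3, against 1.79 to 1.97 in the other BXH strains. The slope on Alb differed between the families (HXB minus BXH) by -0.43 for Cyp1a2 and by -0.43 for Cyp2d2 in a limma interaction term. This term was not fitted without HXB17.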

How the results depend on the processing

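Between the progenitors 13 P450 genes were called. The count was 2 with Alb as a covariate, 2 with the hepatocyte marker mean as a covariate, 7 without the intensity trend and 8 with all groups in 1 fit with batch. Leaving out each library in turn gave 7 to 16 calls, with 7 without SHR replicate 4 and 8 without BN-Lx replicate 4. Cyp11a1 and Cyp2r1 were called under every alternative run. The replicate numbers did not pair the libraries (correlations of same-numbered deviations between -0.09 and 0.08), and the fit with the replicate block gave 12 calls. For the slope on Alb 21 genes were called, against 17 without BXH5 and 12 of 35 in the assembled table. The count was 0 of 9 among genes over the median of gene means. It was 0 in the 8 strains with low Alb, where the slope of Cyp2c13 was reversed (-0.23, limma adjusted p = 0.68). Correlations within the 13 strains with high Alb called 14 genes, against 7 by Spearman's rho and 0 within the 8 strains with low Alb. Between the families 16 genes were called, against 5 of 9 among genes over the median of gene means. The difference of Cyp2d2 was reversed in the assembled table (0.11, limma adjusted p = 0.72), where its gene did not track the RefSeq gene. More than 1 mode was found for 22 genes, and for 10 after the fit on Alb. The filter tests 9 genes, none of them among the 21 called on Alb. The means of those 21 lay between 2.69 and 6.67, under the median of 7.91, so that the filter could not keep their calls. The set with low Alb holds 8 strains, and the cause of the other changes was not tested. Of the values of called genes under each alternative, 65 lost the call and 140 did not between the progenitors, 49 and 214 for the slope and 19 and 109 between the families, beside both reversals. With no counts deposited in these tables, depth could not be weighed.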
